A study of Mus musculus with 9 samples.

Results

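The 10 genes described here encode the VEGF and angiopoietin ligands (Vegfa, Vegfb, Vegfc, Pgf, Angpt1 and Angpt2) and their receptors (Flt1, Kdr, Tek and Tie1). They were taken by symbol from the 22092 genes with counts, and all 10 passed the filter on low counts that left 14427 genes to test. Both groups came from Aldh1l1:L10a-eGFP mice (strain Aldh1L1 JD130) of 2 months, in which the Aldh1l1 promoter drives a GFP-tagged ribosomal protein, so that tagged ribosomes and the mRNAs bound to them can be immunoprecipitated (TRAP). The 3 whole astrocyte TRAP libraries each came from a single brain, and the 6 endfeet TRAP libraries each from brain vessels pooled from several mice, to which the perivascular endings of astrocytes (endfeet) remain attached. The comparison asks which ribosome-bound mRNAs differ in level between endfeet and whole astrocytes. The labels name no treatment, and both groups carry the transgene.

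VEGF ligands bind the receptor tyrosine kinases Flt1 (VEGFR1) and Kdr (VEGFR2), and Vegfc binds mainly Flt4 (VEGFR3). Kdr carries most of the growth signal in endothelial cells, whereas Flt1 binds Vegfa tightly and signals weakly, and its soluble form acts as a decoy. Angpt1 activates the receptor Tek (Tie2), Angpt2 often opposes it, and Tie1 is a partner of Tek. In adult brain the receptors are known mainly from endothelial cells, and Vegfa, Vegfb and Angpt1 also from other cells, astrocytes and pericytes among them.

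Gene totals were 35984144 to 43521208 counts in whole astrocyte TRAP and 2319495 to 13450588 in endfeet TRAP, and endfeet library 6 was the smallest. Levels are counts scaled by library size and TMM factor to CPM, and 3 counts, taken as the smallest amount that can be shown, stood for 0.0689 to 0.0834 CPM of the gene total in whole astrocyte libraries and 0.223 to 1.29 CPM in endfeet libraries, for counting error only. The libraries of endfeet TRAP varied more, with a common dispersion of 0.705 against 0.0141. Of 18 endothelial marker genes 17 were higher in endfeet TRAP, with a summed level of 3376 to 6564 CPM against 65.8 to 80.1 CPM, and Ly6c1 was at 0 in all whole astrocyte libraries. Mfsd2a, a lipid transporter of the blood-brain barrier, was the exception (56.8 ± 55.8 CPM against 54.4 ± 9.04 CPM, adjusted p = 0.958 in edgeR) and made up most of the whole astrocyte sum, since the other 17 genes summed to 14.2 to 21.8 CPM there and to 3357 to 6505 CPM in endfeet libraries. All 12 mural markers were higher (4133 to 8697 CPM against 43.9 to 49.0 CPM), as were all 7 fibroblast markers (2635 to 6047 CPM against 90.1 to 150.1 CPM), 9 of 12 microglia and macrophage markers (250.3 to 446 CPM against 23.7 to 28.5 CPM), 7 of 8 ependymal and choroid plexus markers (6689 to 88663 CPM against 59.6 to 1481 CPM) and 3 of 5 blood markers (30.5 to 111.6 CPM against 1.54 to 2.81 CPM). For whole brains the paper reports that choroid plexus was taken out before extraction, and it names no such step for vessels. Of 12 astrocyte markers 1 was higher (Aqp4) and 5 were lower (Gjb6, Aldoc, Aldh1l1, Sox9 and Acsbg1), with 10086 to 30472 CPM against 24062 to 26270 CPM. Of 10 neuronal markers 4 were lower, and of 8 oligodendrocyte markers 1. Over all tested genes, 20.7% were higher and 13.9% lower in edgeR. Many markers called higher passed the filter on low counts through endfeet TRAP, where they are high, so the marker counts are a description. Pecam1, Abcb1a, Ly6c1, Emcn, Esam, Erg and Sox17, for example, were under the filter's level (0.752 CPM) in all whole astrocyte libraries. The part of these cell types in the differences below was not tested. In bulk libraries, fewer cells of a type and less RNA per cell cannot be told apart.

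Flt1 was counted on several transcripts, of which the one with the most counts (13 exons) encodes the soluble receptor with 688 codons, and another (30 exons) encodes the membrane receptor with 1333 codons. Both share exons 1 to 13 up to base 147639225 of chromosome 5 (mm10, minus strand). The soluble transcript then reads on into the sequence that follows exon 13, and the full-length transcript continues with exon 14. The sequences of 60 bases across this point show where the 2 mRNAs part, with the shared end of exon 13 in lower case and the 30 bases that differ in capitals (147639195 to 147639224 for the soluble, and 147634494 to 147634523 for the full-length transcript).
Soluble Flt1: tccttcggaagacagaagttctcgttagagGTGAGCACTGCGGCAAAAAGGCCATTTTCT
Full-length Flt1: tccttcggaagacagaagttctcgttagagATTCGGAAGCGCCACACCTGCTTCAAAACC

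Of the 10 genes, 8 passed an adjusted p of 0.05 in edgeR's quasi-likelihood test, as 34.6% of all tested genes did. In endfeet TRAP 6 were higher (20.7% of all tested genes) and 2 were lower (13.9% of all tested genes). All 4 receptors were higher, and the 6 ligands comprised 2 higher (Vegfc and Angpt2), 2 lower (Vegfa and Vegfb) and 2 others (Pgf and Angpt1). Of the receptors, Kdr, Tek and Tie1 were under the filter's level (0.752 CPM) in at least 1 whole astrocyte library and passed it through endfeet TRAP, where they are high, so the count of 4 is a description. All endfeet libraries lay above all whole astrocyte libraries for 6 genes (18.9% of all tested genes) and below them for 2 (23.8% of all tested genes).

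**Figure D1:**
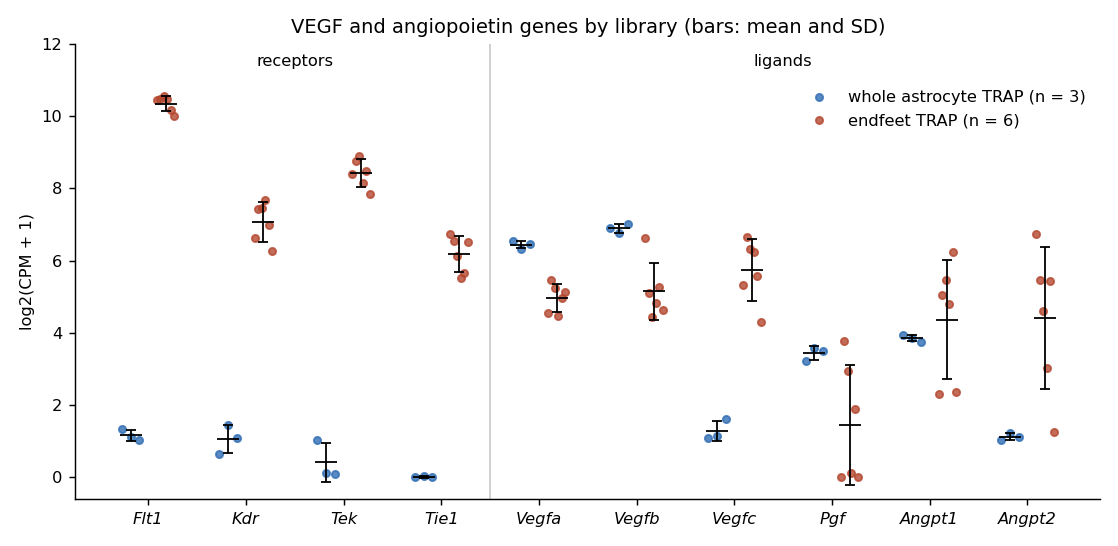
Each point is the log2(CPM + 1) of a gene in a library, in blue for the 3 whole astrocyte TRAP and in red for the 6 endfeet TRAP libraries, and black bars are the mean and SD. The points of both groups do not overlap for the 4 receptors, Vegfa, Vegfb, Vegfc and Angpt2, and they overlap for Pgf and Angpt1.

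Flt1 (chromosome 5, 147561604 to 147726011, minus strand) had 7393, 12310, 22836, 17614, 15630 and 2233 counts in endfeet libraries 1 to 6, and 56, 44 and 48 counts in whole astrocyte libraries 1 to 3. These were 1387, 1415, 1500.4, 1418, 1152 and 1020.1 CPM against 1.51, 1.16 and 1.05 CPM. No endfeet library came near the whole astrocyte level, and the endfeet libraries differed from each other by less than for any of the other 9 genes (coefficient of variation 14.2%). The mean was 1315 ± 186 CPM (SD, n = 6) against 1.24 ± 0.240 CPM (SD, n = 3), a log2 fold change of 10.04 with a standard error of 0.386 (edgeR, adjusted p = 1.8e-08).

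Kdr (chromosome 5, 75932827 to 75978458, minus strand), the main signalling receptor of Vegfa, had 97.7, 171, 176, 202.2, 125 and 76.3 CPM in endfeet libraries and 0.568, 1.72 and 1.12 CPM in whole astrocyte libraries. Endfeet libraries 1 and 6 were the lowest of their group, and still lay far above the other group. The mean was 141 ± 49.3 CPM against 1.14 ± 0.576 CPM (edgeR, log2 fold change 6.95 with a standard error of 0.581 and adjusted p = 2.0e-06).

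Tek (chromosome 4, 94739289 to 94874976, plus strand), the angiopoietin receptor, had 337, 432, 474, 283, 359 and 228 CPM in endfeet libraries and 1.05, 0.0794 and 0.0658 CPM in whole astrocyte libraries. Of the 45 counts in the whole astrocyte group 39 came from library 1, and libraries 2 and 3 had 3 counts each, the smallest amount that can be shown. The mean was 352 ± 91.1 CPM against 0.40 ± 0.567 CPM. The log2 fold change was 9.79 with a standard error of 0.935 (edgeR, adjusted p = 5.6e-06), and 12.15 without whole astrocyte library 1.

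Tie1 (chromosome 4, 118471191 to 118490061, minus strand), the partner of Tek, had 106.4, 92.8, 69.2, 44.8, 49.5 and 90.0 CPM in endfeet libraries, and 0, 1 and 0 counts in whole astrocyte libraries. The endfeet mean was 75.4 ± 24.99 CPM. Endfeet TRAP as a whole held 3853 counts and whole astrocyte TRAP 1 count. The ratio of these rates was 8074 (95% interval 1448 to 318991 for counting error only), and the test gave an adjusted p = 4.6e-07 in edgeR.

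Per kilobase of transcript (RPKM), Flt1 had the highest level of the 10 genes in endfeet TRAP, 209 ± 29.6, followed by Tek with 75.7 ± 19.6. The ligands Vegfb (31.3 ± 22.4) and Vegfc (24.3 ± 12.1) came next. Kdr had 23.9 ± 8.33 and Tie1 18.4 ± 6.11, which differed by less than their spread. In whole astrocyte TRAP the 4 receptors were at or under 0.198 RPKM, and Vegfb had the highest level, 92.2 ± 8.26 RPKM, followed by Vegfa with 24.9 ± 1.83 and Pgf with 6.24 ± 0.918.

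**Figure D2:**
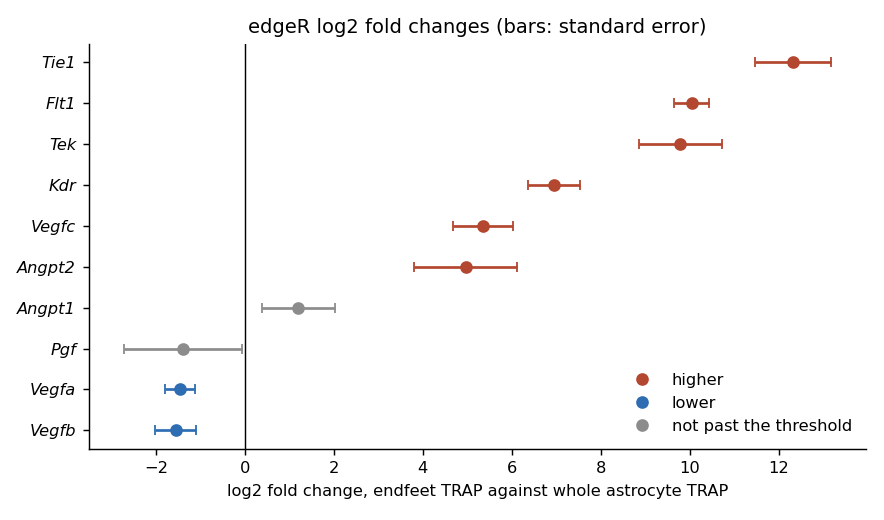
Each point is the log2 fold change of a gene between endfeet TRAP and whole astrocyte TRAP in edgeR, and bars are its standard error. Red genes are higher, blue genes lower, and Pgf and Angpt1, in grey, did not pass the threshold. The value of Tie1 (12.32) depends on the count that the fit adds, since whole astrocyte TRAP held 1 count.

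The counts of the soluble Flt1 transcript exceeded those of the full-length transcript in each library. The ratio was 1.73, 1.14, 1.32, 1.35, 1.27 and 1.19 in endfeet libraries and 1.30, 1.19 and 1.07 in whole astrocyte libraries, so the groups overlapped. A read in exons 1 to 13 was counted on both, and at least 11.9% to 42.3% of the counts of the soluble transcript in endfeet libraries must lie outside the full-length transcript, in the 4066 bases after the point at which the sequences above part. Of these bases, 92 are coding. Counts in this stretch can come from the soluble form or from mRNA that still holds the intron, which cannot be told apart in these counts.

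**Figure D3:**
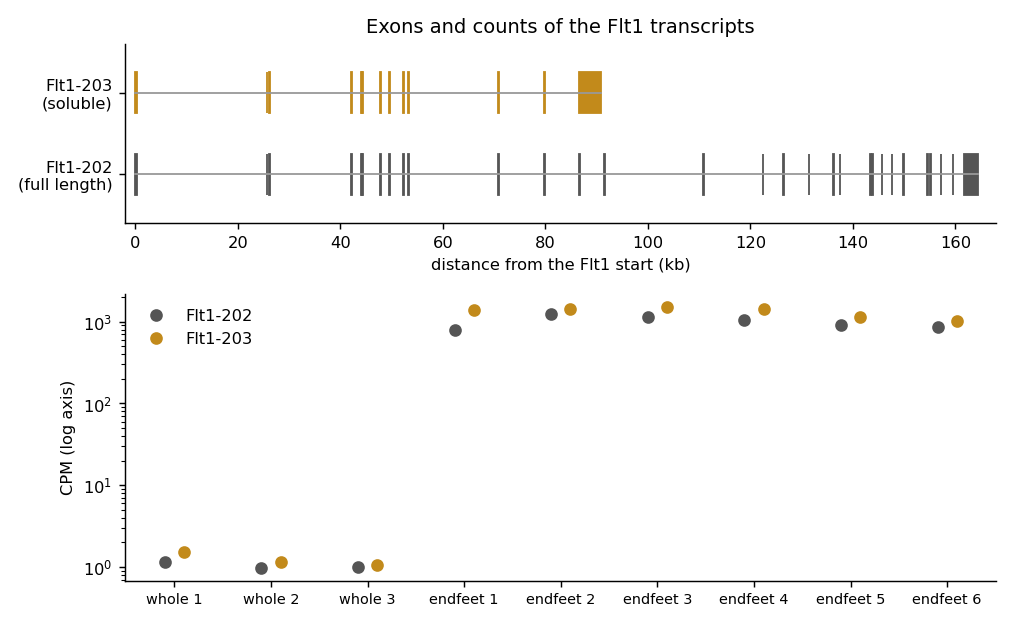
The upper panel draws the exons of the full-length and soluble Flt1 transcripts by distance from the start of the gene in kb. The lower panel gives their CPM in each library on a log axis, with the 6 endfeet libraries and the 3 whole astrocyte libraries far apart for both transcripts, as in the CPM given above.

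Ratios of 2 genes within a library do not depend on its scaling. The ratio of Flt1 to Kdr counts was 14.2, 8.27, 8.54, 7.01, 9.22 and 13.4 in endfeet libraries and 2.67, 0.677 and 0.941 in whole astrocyte libraries. All endfeet libraries were above all whole astrocyte libraries, and the mean log2 ratio was 3.29 ± 0.406 against 0.25 ± 1.02. The difference of 3.04 gave p = 0.0119 in an exact permutation test (two-sided), the smallest that 6 against 3 libraries allow, and 0.0357 after adjustment over 3 ratios. With a library left out, the differences were 2.63 to 3.61, with adjusted p of up to 0.107 (exact permutation). The smallest possible p rises with fewer libraries, so the call could then hold only where another ratio reached it too. That happened without endfeet library 1, through Angpt2 to Angpt1. The call held there and was lost in the other 8 of 9 repeats, and neither outcome says how steady this ratio is. The whole astrocyte ratios rest on 21 to 65 counts of each gene. The Flt1 counts are those of the soluble transcript. They include reads in exons shared with the full-length transcript and reads after them that may come from retained intron. The ratio of Tie1 to Tek, the other pair of receptors, could not be compared in this way, since 2 whole astrocyte libraries had no count of Tie1 (adjusted p = 0.333 in the exact permutation test).

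In edgeR, log2 fold changes of the endothelial list ran from 0.05 for Mfsd2a and 6.18 for Itm2a, the 2 lowest, to 9.99 for Slco1a4 and 10.53 for Ly6c1. The receptors had 6.95 (Kdr), 9.79 (Tek), 10.04 (Flt1) and 12.32 (Tie1). The values of Ly6c1, at 0 in whole astrocyte TRAP, and of Tie1, with 1 count there, depend on the count that the fit adds. Most genes of that list and the 4 receptors lay near or under 1 CPM in whole astrocyte libraries, so the level of a receptor relative to the list depended on the amount added before taking logs (for Tie1 -0.22 with 1 CPM and 1.69 with 0.1 CPM). Whether a receptor changed more or less than the endothelial list was therefore not read from these libraries.

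Promoters of the receptors, read from RefSeq (GRCm38.p6, 250 bases before to 50 after the start), were searched on both strands for CAGGAA or CCGGAA, letters that ETS factors, a family active in endothelial cells, are known to bind. Kdr held 1 match, Tek 2, Tie1 1 and Flt1 0, and 41.4% of 32851 promoters held at least 1 and 11.9% at least 2. The promoters of Tek (chr4:94739039-94739338, plus strand) and Kdr (chr5:75978406-75978705, minus strand) are shown as examples with the matches in capitals. All 4 receptors were higher in endfeet TRAP, Flt1 with 0 matches included. A match says only that the letters are there.
Tek: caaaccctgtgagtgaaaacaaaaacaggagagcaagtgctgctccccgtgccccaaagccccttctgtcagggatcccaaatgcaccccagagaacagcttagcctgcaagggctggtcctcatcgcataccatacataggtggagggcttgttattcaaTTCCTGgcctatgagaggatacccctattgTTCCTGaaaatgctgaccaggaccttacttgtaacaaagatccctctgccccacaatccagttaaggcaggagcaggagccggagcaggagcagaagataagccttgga
Kdr: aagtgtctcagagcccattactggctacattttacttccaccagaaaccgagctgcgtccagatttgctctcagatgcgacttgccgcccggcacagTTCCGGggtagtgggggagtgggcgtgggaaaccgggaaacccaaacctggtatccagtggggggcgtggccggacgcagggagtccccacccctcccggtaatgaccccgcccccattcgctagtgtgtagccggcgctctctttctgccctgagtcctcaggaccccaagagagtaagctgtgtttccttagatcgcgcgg

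Vegfa (chromosome 17, 46016993 to 46032369, minus strand), the main ligand of Kdr and Flt1, was lower in endfeet TRAP. It had 22.5, 42.9, 37.0, 21.2, 30.1 and 34.3 CPM in endfeet libraries and 92.2, 79.6 and 86.6 CPM in whole astrocyte libraries. The groups did not overlap, and all endfeet values were lower. The mean was 31.3 ± 8.44 CPM against 86.1 ± 6.32 CPM, 2.75 times lower (edgeR, log2 fold change -1.46 with a standard error of 0.340 and adjusted p = 0.00501). Set beside the mean of the astrocyte list of the same library, Vegfa differed by -0.21 between groups (exact permutation, adjusted p = 0.664). On the log2 scale this relative level had an SD of 0.880 in endfeet libraries, against 0.391 for Vegfa alone. List genes ran from a log2 fold change of -4.00 (Aldoc) to 1.67 (Aqp4), so the list is no single level and equal change was not shown.

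Vegfb (chromosome 19, 6982473 to 6987651, minus strand), a ligand of Flt1, had 97.2, 33.3, 20.5, 27.6, 37.9 and 23.8 CPM in endfeet libraries and 117.6, 107.8 and 128.9 CPM in whole astrocyte libraries. Endfeet library 1 stood near the whole astrocyte group and the other 5 far below it. The mean was 40.04 ± 28.7 CPM against 118.1 ± 10.6 CPM (edgeR, log2 fold change -1.56 with a standard error of 0.454 and adjusted p = 0.0176). The call was lost without whole astrocyte library 1, 2 or 3 (log2 fold changes -1.53, -1.64 and -1.51, adjusted p = 0.0653, 0.0501 and 0.0711 in edgeR). Set beside the astrocyte list, Vegfb differed by -0.48 (exact permutation, adjusted p = 0.327), with the same limit as for Vegfa.

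Vegfc (chromosome 8, 54077606 to 54187096, plus strand), the ligand of Flt4 in lymphatic growth, was the VEGF ligand that rose. It had 39.0, 98.8, 78.9, 74.5, 46.6 and 18.7 CPM in endfeet libraries against 1.14, 1.19 and 2.04 CPM. The mean was 59.4 ± 29.7 CPM against 1.46 ± 0.508 CPM (edgeR, log2 fold change 5.35 with a standard error of 0.677 and adjusted p = 5.9e-05).

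Pgf (chromosome 12, 85166635 to 85177790, minus strand), placental growth factor and a ligand of Flt1, had 0, 110, 102, 1, 37 and 0 counts in endfeet libraries and 305, 417 and 471 counts in whole astrocyte libraries. In CPM, 5 endfeet libraries were below all whole astrocyte libraries, and library 2, with 12.6 CPM, was above them, with a mean of 3.69 ± 5.11 CPM against 9.87 ± 1.45 CPM. The difference was not past the threshold (edgeR, log2 fold change -1.39 with a standard error of 1.33 and adjusted p = 0.445), though it did with limma voom and a weight for each group (-3.23, adjusted p = 0.00867), a fit that called 58.3% of all tested genes. Without endfeet library 2 the log2 fold change was -2.24 (adjusted p = 0.237 in edgeR).

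Angpt1 (chromosome 15, 42424723 to 42676977, minus strand), the ligand that activates Tek, had 3.94, 31.9, 43.2, 26.6, 73.9 and 4.11 CPM in endfeet libraries and 14.2, 13.6 and 12.5 CPM in whole astrocyte libraries. Libraries 1 and 6 were below and the other 4 above all whole astrocyte libraries, so the endfeet group, with a mean of 30.6 ± 26.3 CPM against 13.4 ± 0.890 CPM, spread on both sides (edgeR, log2 fold change 1.19 with a standard error of 0.823 and adjusted p = 0.282). Without endfeet library 5, the highest, the log2 fold change was 0.59 (adjusted p = 0.601 in edgeR). Of its 4260 exon bases 737 are shared with Gm17473 on the opposite strand, and whether counting used the strand is not given in the sources used here.

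Angpt2 (chromosome 8, 18690263 to 18741562, minus strand), a context-dependent antagonist of Tek, had 104.7, 42.7, 23.2, 7.08, 42.2 and 1.37 CPM in endfeet libraries and 1.03, 1.32 and 1.19 CPM in whole astrocyte libraries. The values ran over a 76.4-fold range, and that of library 6 rests on 3 counts, so it does not stand apart from the whole astrocyte level. The mean was 36.9 ± 37.4 CPM against 1.18 ± 0.148 CPM. The log2 fold change was 4.96 with a standard error of 1.15 (edgeR, adjusted p = 0.00493).

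The ratio of Angpt2 to Angpt1 counts was 26.6, 1.34, 0.537, 0.266, 0.572 and 0.333 in endfeet libraries and 0.0721, 0.0973 and 0.0949 in whole astrocyte libraries. The groups did not overlap, but endfeet library 1 lay far above the other 5. The difference of the mean log2 ratio was 3.52 (two-sided exact permutation p = 0.0476, adjusted p = 0.0714 over 3 ratios), and 2.58 without endfeet library 1 (adjusted p = 0.0268 in the same test). In library 1 the summed level of ependymal and choroid plexus markers was also the highest, 88663 CPM, and the part of these cells in the ratio was not tested.

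**Figure D4:**
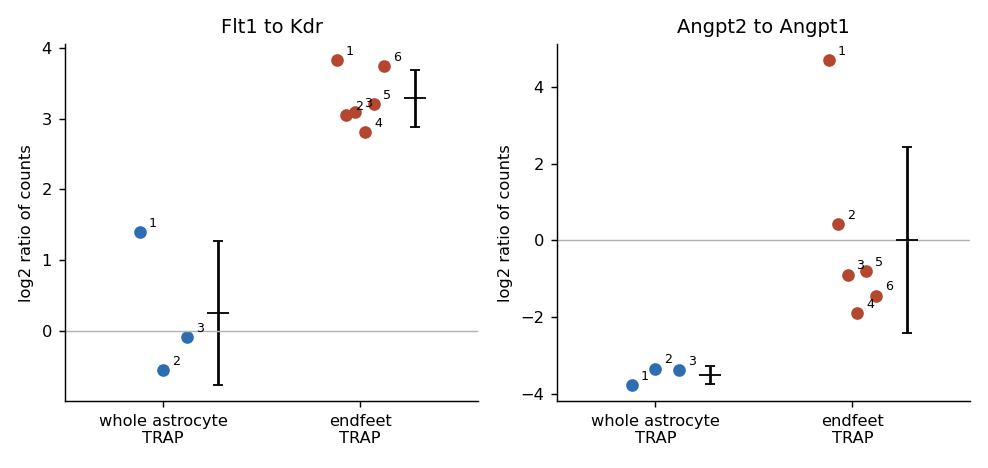
Each point is the log2 ratio of counts of 2 genes in a library, with its replicate number, and bars are the mean and SD. Flt1 to Kdr is on the left, where the groups do not overlap, and Angpt2 to Angpt1 on the right, where endfeet library 1 stands at 4.70.

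Among 13 further family members and coreceptors, 12 could be tested, of which edgeR called 10 higher and 0 lower, where 20.7% of all tested genes were higher and 13.9% lower. Of these 10, Flt4, Ptprb, Itgb3 and Itga5 passed the filter on low counts through endfeet TRAP. The largest difference was that of Ptprb (VE-PTP), the phosphatase that acts on Tek, with 3307 ± 889 CPM against 0.981 ± 0.50 CPM (edgeR, log2 fold change 11.71 with a standard error of 0.579 and adjusted p = 7.3e-08). Flt4, the receptor of Vegfc, had 66.7 ± 38.5 CPM against 0.312 ± 0.192 CPM (edgeR, log2 fold change 7.73 with a standard error of 0.845 and adjusted p = 1.9e-05). The neuropilins Nrp1 and Nrp2, coreceptors of VEGF and of semaphorins, had 257 ± 122 and 119 ± 44.3 CPM against 13.7 ± 0.572 and 14.4 ± 2.85 CPM, and log2 fold changes of 4.23 and 3.05. Plxnd1, a semaphorin receptor, had a log2 fold change of 4.62. Integrins that take part in these signals were called higher too, with log2 fold changes of 4.79 for Itga5, 4.57 for Itgb3, 3.78 for Itgb1 and 1.36 for Itgav. Itgb3 and Itgav overlapped between groups. Itgb3 had 0.188 CPM in endfeet library 1 and Itgav 54.4 CPM in endfeet library 6, each below all whole astrocyte libraries. Itgav passed narrowly (adjusted p = 0.0474 in edgeR). The proteoglycan Sdc2 had 1.06. With a library left out, 7 to 11 genes of the list were higher. Vegfd and Gpc1 did not pass the threshold (2.33 and 1.89, adjusted p = 0.261 and 0.179 in edgeR), and Angpt4 had too few counts.

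Of 30 signal transducers below the receptors, 3 were higher and 6 were lower, while 21 missed the threshold, so the share called was near that of all tested genes (34.6%), and the median log2 fold change was -0.24 against 0.10 over all tested genes. Those higher were Nos3, the endothelial nitric oxide synthase (3.57), the adaptor Grb10 (2.38) and Hspb1 (4.79), which had 0.841 ± 0.373 CPM in endfeet TRAP and so lay near the smallest amount that can be shown. Hspb1 passed the filter on low counts through endfeet TRAP. Its value depends on the count that the fit adds, since whole astrocyte libraries 1 to 3 had 0, 2 and 1 counts. Lower were, among others, Map2k1 (-1.89), Fyn (-1.50) and Prkcb (-1.38). Of 9 regulators of the hypoxia response, which control Vegfa transcription, Epas1 (HIF-2 alpha) was higher with 3860 ± 979 CPM against 715 ± 18.6 CPM, as was Hif1an (2.26), while Vhl and Hif3a were lower (-3.09 for both). The other 5 did not pass the threshold, and these shares, too, are near those of all tested genes (20.7% higher and 13.9% lower).

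Of 12 tested genes of the angiogenic response of endothelial cells, 7 were higher and 3 were lower (20.7% and 13.9% of all tested genes). Of the 7, 5 (Robo4, Dll4 and Aplnr among them) passed the filter through endfeet TRAP, where they are high. Robo4, Dll4 and Aplnr had the largest increases (9.30, 7.30 and 6.33). Dll4 overlapped between groups, with 0 counts in endfeet library 1 and 2 in library 6 (standard error 1.93, adjusted p = 0.0105 in edgeR). Apln, the ligand of Aplnr, fell from 250.1 ± 32.8 CPM to 29.2 ± 14.8 CPM (edgeR, log2 fold change -3.11 with a standard error of 0.443 and adjusted p = 1.5e-04). Egr3 and Rcan1, which VEGF signals can induce, were the other 2 that were lower (-4.18 and -1.44). Of 3 angiopoietin-like genes tested, Angptl2 was higher (5.04) and the other 2 did not pass the threshold.

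**Figure D5:**
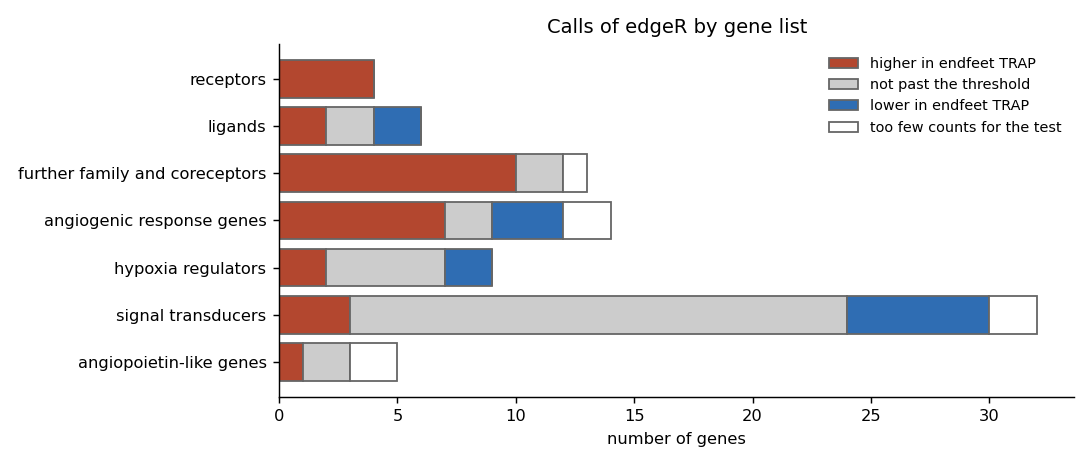
Bars give the number of genes of each list that were higher (red), lower (blue), not past the threshold (grey) or too low to test (white) in edgeR. All 4 receptors and 10 of 13 further family members and coreceptors are in red, and 21 of 32 signal transducers are in grey.

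The libraries carry numbers of 2 series, endfeet 1 to 3 in the first and all others in the second, whose meaning is not stated. With endfeet libraries 4 to 6 only, the same direction was found for all 10 genes, with log2 fold changes of 9.78 for Flt1, 6.75 for Kdr, 9.39 for Tek and 12.04 for Tie1, and of -1.73 for Vegfa, -2.11 for Vegfb, 4.87 for Vegfc, 3.71 for Angpt2, -3.35 for Pgf and 1.25 for Angpt1.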

How the data were processed

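RNA-seq of ribosome-bound mRNA gave 6 endfeet TRAP and 3 whole astrocyte TRAP libraries. The authors aligned reads to mm10 with Bowtie, kept those with 1 alignment and counted overlaps with Ensembl transcripts by HTSeq 0.5.3 (versions per the submitters' processing notes). The deposited values are raw counts per transcript, neither normalized nor pooled. A read was counted on every transcript it overlapped, so the transcript with the largest sum of CPM stands for its gene. Of 75466 transcripts, 73164 in 22092 genes were matched to GENCODE M21 annotation of the same build, which gave lengths and positions and may differ from the models the authors counted.

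Groups, taken from the sample titles, were compared with edgeR 4.0.16 (TMM, filterByExpr, quasi-likelihood test, no covariates) in R 4.3.3, with Benjamini-Hochberg adjustment over 14427 genes and a threshold of 0.05. Standard errors were derived from the log2 fold change and the F statistic (absolute change over root F). Ratios (0.5 counts added) and values relative to marker lists (1 CPM added) were put to exact permutation tests (two-sided, 84 arrangements). The p-values set the difference between groups against the spread between libraries, which are single brains in 1 group and pools in the other. The edgeR fit took 1 dispersion per gene for both groups, though their common dispersions were 0.0141 and 0.705. Genes and lists were chosen with earlier results of these data known. Named are all 10 genes, the further family members and coreceptors, at most the 3 genes of largest change per direction in each other list, marker genes where a list is discussed, and the 3 genes most alike to Vegfa and Kdr.

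The replicate numbers of the labels were checked for pairing: deviations from group means correlated at -0.0339, 0.00847 and 0.0714 in same-numbered pairs, so the numbers were not taken as pairs. Alternatives were DESeq2 1.42.0, limma 3.58.1 voom, other size factors, filters, transcript summaries, thinning, the number series, the replicate block and each library left out. The tests were tested on simulated data. Tables were handled in Python 3.11.15 with pandas 2.3.3.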

Additional observations from a re-analysis of the deposited data

Results flagged for a closer look

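In groups of 6 endfeet libraries, the highest or lowest library was flagged where its gap to the next exceeded Dixon's 95% critical value of 0.625 of the range. Of 26 groups tested, 4 passed, and chance alone flags some. Vegfb was at 97.2 CPM in endfeet library 1, with a gap of 0.773 of the range. Nrp1 was at 496 CPM in the same library (0.684), and the log2 ratio of Angpt2 to Angpt1 was 4.70 there (0.648). Angpt4 was at 0.345 CPM in endfeet library 2 and at 0 in the other 5, which rests on 3 counts.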

How the results depend on the processing

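The sign of the log2 fold change was kept for all 10 genes under each alternative run. Of 105 values from alternatives other than leaving out a library, 103 kept their side of the threshold. Vegfb did not pass it with the replicate number as a block (-1.55, adjusted p = 0.0527 in edgeR), which left 1 lower gene, and Pgf passed it with limma voom (-3.23). The block changed no other call among the 10 genes, and the cause was not tested. Requiring at least 10 counts in every library left 5 of the 10 genes to test, of which 3 were higher, and 2 higher angiogenic response genes. With limma voom 10 signal transducers, 5 angiogenic response genes and 2 angiopoietin-like genes were lower, in a fit where 31.1% of all tested genes were lower (13.9% in the main test), and the median log2 fold change of all genes moved to -0.29 (-0.16 with endfeet libraries 4 to 6 only and -0.22 with the block, against 0.10). With each library left out in turn, 1 to 2 genes were lower, and Vegfb ranged from -2.05 to -1.45. The log2 ratio of Flt1 to Kdr differed by 2.63 to 3.61 and that of Angpt2 to Angpt1 by 2.58 to 3.90. The call of Flt1 to Kdr was lost in 8 of 9 repeats, but it could hold only where another ratio also reached the smallest possible p. Of the 20 values relative to marker lists, 8 were higher and 5 lower, and 0 to 9 and 0 to 6 with a library left out, and those of genes near 0 in whole astrocyte TRAP depend on the 1 CPM added. Without whole astrocyte library 1, 2 or 3, 0 passed, since the smallest adjusted p then rises above the threshold (exact permutation). The depth of endfeet library 6 limits what can be said of Angpt2, Angpt1 and Pgf there.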

Other observations

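The genes whose pattern over the 9 libraries was most like that of Vegfa, by the root mean square difference of centred log2(CPM + 1) among 14426 genes, were Srp19 (0.143), Lancl1 (0.162) and Cntnap4 (0.171). For Kdr they were Cgnl1 (0.335), AW112010 (0.338) and Pltp (0.347). The Vegfa transcript with the most counts (7 exons) holds 1550 bases at the end of its last exon (46016993 to 46018542 of chromosome 17) that a transcript with 8 exons lacks. Of its counts, at least 77.6% to 96.7% in endfeet libraries and 70.3% to 75.7% in whole astrocyte libraries were not counted on that transcript. A Vegfa transcript with 6 exons (46018858 to 46031890) holds none of the 1550 bases. It had 120, 373, 557, 263, 396 and 71 counts in endfeet libraries 1 to 6. The transcript with 7 exons had 120, 373, 563, 263, 408 and 75 there. In whole astrocyte libraries the counts were 3223, 2887 and 3750 against 3410, 3006 and 3944. These counts therefore do not place the excess over the transcript with 8 exons in the 1550 bases. Where the excess lies was not tested. The ratio of a Kdr transcript annotated as a retained intron to the coding one was 0.148 to 0.467 in endfeet libraries and 0.0476 to 0.137 in whole astrocyte libraries, where the former had 1 to 8 counts. Of its 3174 bases only 1354 are absent from the coding transcript. A read in the bases that both share was counted on both, so the ratio does not measure intron retention.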
